A study of Mus musculus with 66 samples.

Results

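Mouse gastrocnemius muscle taken 5, 5.5 and 6 d after an injection of cardiotoxin, here called regenerating, was compared with the same muscle taken 30 and 40 d after it, here called healed. The regenerating side held 6 arrays (2 per time point) and the healed side 4 arrays (2 per time point), out of 66 arrays in the series. These 10 arrays were all of the later of 2 array versions, on which 27 groups of 2 arrays were measured, and are all the arrays of these time points. Healed muscle, and not the 2 untreated arrays of mice of 8 weeks, was the reference, so both sides of the comparison had been injected. Each array measured total RNA of muscle by hybridisation to short oligonucleotide probes, grouped into probe sets. Strain, genotype, sex, age at injection, toxin dose and hour of collection of the 10 compared samples were not given in the sources used here. Sample codes, which are not explained in the sources used here, carried a number and letters. Both arrays at 5 d and both at 5.5 d had the number 2, with the letters LL and RL at each time. The arrays at 6, 30 and 40 d had the numbers 1 and 2. Whether arrays of a time point were separate animals is not given. The p-values rest on the spread between the 2 arrays of a time point, pooled over all 27 groups, and this spread may be technical. Differences between the time points of a window do not enter it.

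Cardiotoxin, a peptide of cobra venom, lyses the membrane of muscle fibres and largely spares the satellite cells, which are the stem cells that lie under the basal lamina of each fibre. Satellite cells then divide as myoblasts under the control of Myf5 and Myod1, leave the cell cycle with Myog, and fuse into young fibres that first use embryonic and perinatal forms of the contractile proteins and lie with their nuclei in the centre. Macrophages clear the debris and fibroblasts lay down a provisional matrix during the same days. In the following weeks the young fibres grow, receive new nerve contacts, and take on the adult contractile and metabolic isoforms. The gastrocnemius is a mixed calf muscle in which fast fibres predominate.

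Every array had been scaled to the same trimmed mean (800.4 to 800.5). Levels are intensities as deposited, which are comparable between arrays for 1 gene but not between genes, and log2 changes are regenerating minus healed with intensities raised to a floor of 64.7. A fold that rests on arrays below this floor understates the change, and is given as "at least" where a whole side lay below it. Between 78.5% and 83.4% of probe sets lay above the floor on the 10 arrays. As a check of the tissue, Myh1, the fast 2x myosin heavy chain, lay between 15738 and 36823 on all 10 arrays. Other contractile genes varied more, among them the skeletal actin Acta1, as given below. Over probe sets, pairs of regenerating arrays correlated at 0.949 to 0.975 (15 pairs), pairs of healed arrays at 0.943 to 0.973 (6 pairs), and regenerating with healed arrays at 0.857 to 0.919 (24 pairs). The Gapdh control ratio moved with the groups. The ratio of the 3′ to the 5′ Gapdh control signal was 0.565 to 0.842 on the regenerating arrays but 0.0845 and 0.0653 at 30 d and 0.0881 and 0.314 at 40 d, with 0.451 and 0.373 on the untreated arrays. The same ratio for actin was 0.933 to 1.11 on the healed arrays and was low (0.233) on 1 regenerating array, the first at 5 d. The main counts are therefore also given without these 4 arrays, which leaves 5 regenerating arrays and 1 healed array, the second at 40 d, that is assumed to vary like the other groups. That array was the lowest of the 4 healed arrays in list score, the mean log2 level of a list's genes relative to the healed mean, for the macrophage (-0.35), matrix (-0.58), class II (-0.44) and interferon (-0.44) lists. A rise of those lists that is as large without the 4 arrays is therefore no separate sign of stability.

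Of 8087 genes tested, 1614 were higher in regenerating muscle (20%) and 1429 were lower (17.7%) at an adjusted p below 0.05 (limma, Benjamini-Hochberg). For 1201 of the higher genes (14.9% of all) and 1041 of the lower genes (12.9% of all), the 6 regenerating and 4 healed arrays did not overlap at all. At least 2-fold changes were seen for 702 higher and 508 lower genes, and at least 8-fold changes for 34 and 16. The median change over all genes was 0.00. When the test instead required a change of more than 2-fold, 276 genes were higher and 135 lower. Without the 4 arrays with a low control ratio, 1189 genes were higher and 981 lower, of which 1084 and 819 were among the genes called with all arrays.

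Developmental forms of the contractile proteins stood far above their levels in healed muscle. Of 11 tested genes of this list, 7 rose and 0 fell, with a median log2 change of 1.98, and without the 4 arrays with a low control ratio 6 rose and 1 fell. Myh3, the embryonic myosin heavy chain that marks newly formed fibres, lay between 7571 and 11646, with a median of 8226, on the regenerating arrays. On the healed arrays it lay at 125.3 and 517.1 at 30 d and, at 40 d, 498.7 and 282.4, far from any regenerating array. The log2 change of Myh3 was 4.81 (SE 0.25, adjusted p = 4.8e-15), which is 28.1-fold. Myl4, the embryonic alkali light chain, lay between 14715 and 18395, with a median of 16108, in regenerating muscle and at 665.8 and 922.7 at 30 d and, at 40 d, 625.3 and 616.2, and changed by 4.54 (SE 0.23, adjusted p = 2.6e-15). A second probe set of Myl4 gave 1.04. Tnnt2, the troponin T of heart and of embryonic skeletal muscle, lay between 3191 and 4821, with a median of 4167, against 233.6 and 281.6 at 30 d and, at 40 d, 309.7 and 275.5, a 15.0-fold difference (log2 3.91, SE 0.15, adjusted p = 4.8e-18). For all 3 genes the groups were separated by a wide gap and the healed arrays were not at the floor. Myh8, the perinatal myosin heavy chain, was at 3081 ± 810 against 296.7 ± 119 (mean ± SD, n = 6 and 4, as throughout), a change of 3.43 (SE 0.18, adjusted p = 4.8e-15), although another Myh8 probe set gave -0.42. Actc1, the cardiac actin that young fibres also make, did not pass (log2 change 0.25, SE 0.26, adjusted p = 0.52), and its regenerating and healed arrays overlapped.

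**Figure D1:**
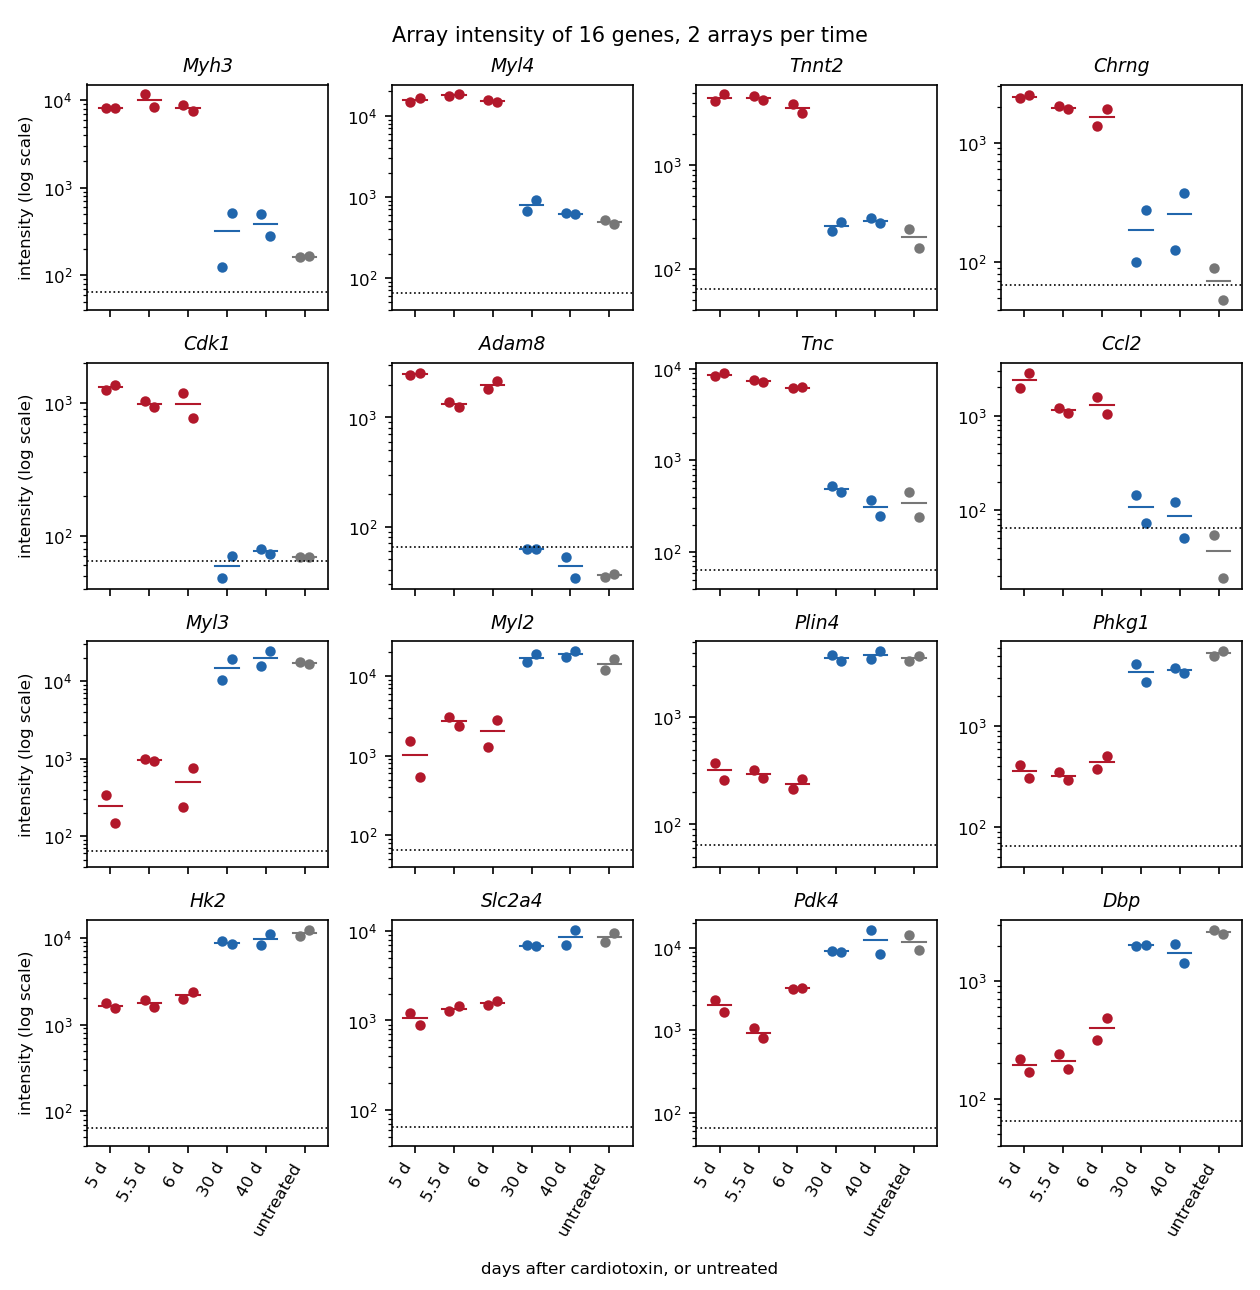
Intensity (log axis, deposited units) of 16 genes on the 6 regenerating arrays (5, 5.5 and 6 d), the 4 healed arrays (30 and 40 d) and the 2 untreated arrays. Each point is 1 array, each bar the mean of the 2 arrays of a time point, and the dotted line the floor of 64.7. Regenerating and healed points of Myh3 and Myl3 lie far apart in opposite directions (log2 changes of 4.81 and -5.20).

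The slow contractile genes moved the other way. Of 10 tested, 0 rose and 7 fell, with a median of -1.80, and the same counts came out without the 4 arrays with a low control ratio. Myl3, the ventricular and slow-fibre essential light chain, had the largest fall of all genes whose arrays did not overlap. It lay between 149.8 and 990.2, with a median of 548, in regenerating muscle and at 10374 and 19056 at 30 d and, at 40 d, 15686 and 24103, a change of -5.20 (SE 0.55, adjusted p = 6.3e-09) or 36.8-fold. The highest regenerating array still lay far below the lowest healed array. Myh7, the slow myosin heavy chain, lay between 774.3 and 5856, with a median of 1184, against 19340 and 25432 at 30 d and, at 40 d, 20980 and 29705 (log2 change -3.78, SE 0.60, adjusted p = 7.0e-06), and its second probe set gave -1.07. Myl2, the regulatory light chain of slow fibres and ventricle, lay between 545.4 and 3087, with a median of 1940, against 14830 and 18858 at 30 d and, at 40 d, 17487 and 20262 (log2 change -3.41, SE 0.51, adjusted p = 2.6e-06). These 3 genes varied more among regenerating than among healed arrays, yet the groups did not overlap. Tpm3, the slow tropomyosin, was at 3260 ± 1209 against 19002 ± 5946 (log2 change -2.57, SE 0.29, adjusted p = 2.6e-08), with 0.07 at its other probe set. Tnni1, the slow troponin I, did not pass (log2 change 0.33, SE 0.26, adjusted p = 0.38).

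The adult fast contractile genes did not show a common direction. Of 16 tested, 1 rose and 4 fell (median -0.23), beside 20% of all genes tested that rose and 17.7% that fell. Without the 4 arrays with a low control ratio the median was -0.32. Myh4, the fast 2b myosin, gave -0.46 (SE 0.41, adjusted p = 0.44), Myh1 gave -0.32 (SE 0.27, adjusted p = 0.42), and Tnnt3, the fast troponin T, gave -0.31 (SE 0.24, adjusted p = 0.37). None of the 3 passed, and their regenerating and healed arrays overlapped. Myosin heavy chains and actins are close paralogs, so their probe sets may read more than 1 of them. Acta1, the skeletal actin, spanned 3130 to 36818 in regenerating and 2635 to 22600 in healed muscle, and its change was 0.50 with an SE of 0.88. Tnni2, the fast troponin I, lay between 1051 and 2022, with a median of 1552, against 3116 and 2863 at 30 d and, at 40 d, 3076 and 3124, and fell by 1.00 on the log2 scale (SE 0.19, adjusted p = 1.1e-04). Ldb3, a Z-disc protein that binds alpha-actinin, fell likewise (log2 change -1.28, SE 0.34, adjusted p = 0.003), and neither gene overlapped between groups. The single rise of this list was Pvalb, the calcium buffer parvalbumin of fast fibres, at between 8696 and 17326, with a median of 16055, against 7604 and 3515 at 30 d and, at 40 d, 311.8 and 468.4 (log2 change 3.29, SE 0.95, adjusted p = 0.0068). This rise rests on the dim 40 d arrays: without the 40 d time point its change was 1.41 (adjusted p = 0.48), and the other Pvalb probe set gave -2.71. On the untreated arrays Pvalb stood at 17800 and 27875, above both windows.

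The list score, the mean log2 difference of the list's genes from their mean on the healed arrays, showed for the fast genes how uneven this group was. It was -0.45 and -0.44 at 5 d, 0.16 and 0.36 at 5.5 d, and -0.19 and 0.13 at 6 d. In healed muscle it was 0.37 and -0.04 at 30 d and -0.37 and 0.05 at 40 d. Regenerating and healed scores thus overlapped, and both lay below the 2 untreated arrays, at 0.74 and 0.85. For the slow genes the regenerating scores ran from -2.46 to -1.27 and the healed scores from -0.32 to 0.43, with no overlap.

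Pairs of isoforms in which an early or ubiquitous form is set against an adult muscle form were compared gene by gene. Of 22 pairs listed, 19 had both genes tested. The early form rose in 9 pairs and fell in 2, and the adult form rose in 0 and fell in 8. In 15 pairs the change of the early form lay above that of the adult form. Both genes passed in opposite directions in 3 pairs, all of them metabolic. Ckb, the brain creatine kinase, changed by 0.88 (SE 0.16, adjusted p = 3.6e-05) and Ckm, the muscle creatine kinase, by -0.75 (SE 0.24, adjusted p = 0.014). Pgam1, the ubiquitous phosphoglycerate mutase, changed by 1.60 (SE 0.21, adjusted p = 3.5e-07) and the muscle form Pgam2 by -1.07 (SE 0.34, adjusted p = 0.013). Slc25a5, the adenine nucleotide carrier of growing cells, changed by 1.00 (SE 0.15, adjusted p = 2.7e-06) and the muscle carrier Slc25a4 by -0.70 (SE 0.16, adjusted p = 9.7e-04), with -0.07 to 0.44 at other Slc25a5 probe sets. The Ckm call ended without the first 30 d array (adjusted p = 0.053) or the second 40 d array (adjusted p = 0.13), and the Pgam2 call without the same arrays (0.057 and 0.067). Without the 4 arrays with a low control ratio Ckb, Ckm and Pgam2 gave 0.50, -0.97 and -1.36 and did not pass (adjusted p = 0.2, 0.09 and 0.1). The slow forms that fell in place of rising were Tnnc1, the slow troponin C (log2 change -1.68, SE 0.38, adjusted p = 7.5e-04), and Atp2a2, the slow calcium pump (log2 change -1.91, SE 0.33, adjusted p = 2.8e-05). With untreated muscle as the reference they gave -0.40 (SE 0.49, adjusted p = 0.6) and -0.14 (SE 0.42, adjusted p = 0.88) and did not pass. Cox6a1, the ubiquitous form of a cytochrome oxidase subunit, rose by 1.36 (SE 0.10, adjusted p = 7.4e-12), and the muscle forms Cox7a1 (log2 change -2.20, SE 0.36, adjusted p = 1.2e-05) and Cox8b (log2 change -1.70, SE 0.24, adjusted p = 7.7e-07) of other subunits fell. The other form of each of these pairs did not pass. The muscle form Cox6a2 gave -0.56 (adjusted p = 0.069). The ubiquitous forms Cox7a2 and Cox8a gave -0.03 (adjusted p = 0.96) and -0.51 (adjusted p = 0.24).

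**Figure D2:**
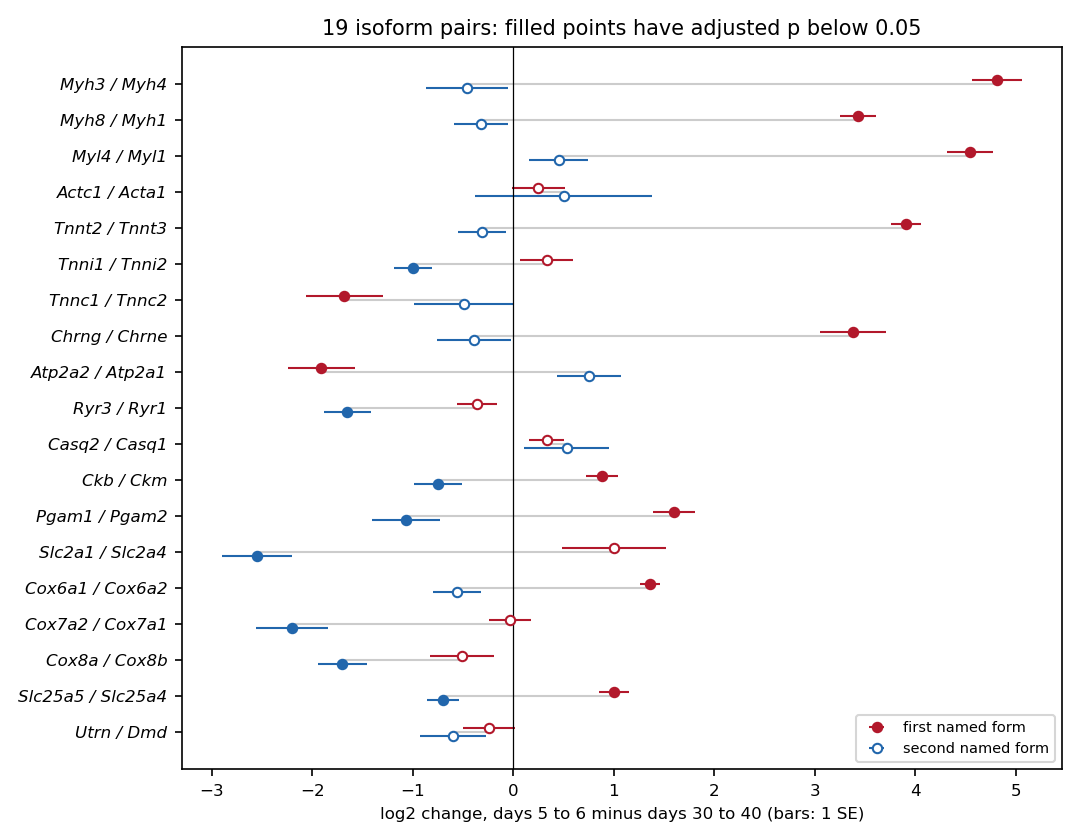
Log2 change, regenerating minus healed, of both genes in 19 isoform pairs, with error bars of 1 SE from limma. Filled points have an adjusted p below 0.05, and the early or ubiquitous form lies to the right of the adult form in 15 pairs.

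Among the myogenic regulators, 6 of 16 rose and 3 fell (median 0.10), beside 20% of all genes tested that rose and 17.7% that fell. Without the 4 arrays with a low control ratio the median was 0.32. Myog, the factor that drives terminal differentiation, lay between 2615 and 4822, with a median of 3604, in regenerating muscle and at 1195 and 858.7 at 30 d and, at 40 d, 877.2 and 883.7, a change of 1.91 (SE 0.22, adjusted p = 3.8e-08). Myf5, the factor of satellite cells and early myoblasts, lay between 153.5 and 385.2, with a median of 309.7, against 88.66 and 98.64 at 30 d and, at 40 d, 132.1 and 87.48 (log2 change 1.51, SE 0.25, adjusted p = 1.2e-05). Both were clear of the healed arrays. Myod1, which commits cells to muscle, differed less, at 3308 ± 582 against 1934 ± 124 (log2 change 0.76, SE 0.13, adjusted p = 3.3e-05), and did not pass without the 4 arrays with a low control ratio (0.62, adjusted p = 0.06). Myf6, the factor of mature fibres, gave -0.11 (SE 0.25, adjusted p = 0.82) with overlapping arrays. Fgfr4, a growth factor receptor of differentiating myoblasts, lay between 366 and 568.3, with a median of 486.7, while all 4 healed arrays lay below the floor, so its rise was at least 7.41-fold (log2 2.89, SE 0.18, adjusted p = 9.9e-14). Hes6, which promotes myogenic differentiation, rose by 1.68 (SE 0.16, adjusted p = 6.3e-10), and Snai2, a transcriptional repressor, by 1.14 (SE 0.14, adjusted p = 6.5e-08). Mstn, the growth inhibitor myostatin, was lower at 231.5 ± 64.8 against 486.6 ± 127 (log2 change -1.09, SE 0.31, adjusted p = 0.0058), and this call ended without the first 30 d array (adjusted p = 0.063) or the 4 arrays with a low control ratio (adjusted p = 0.078).

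The acetylcholine receptor has a gamma subunit in fetal and denervated fibres, which an epsilon subunit replaces at the mature synapse. Of 11 tested genes of the receptor and synapse, 6 rose and 2 fell (median 0.36), beside 20% and 17.7% of all genes tested. Without the 4 arrays with a low control ratio the median was 0.06. Chrng, the gamma subunit, lay between 1374 and 2528, with a median of 1973, in regenerating muscle and at 100.9 and 273.2 at 30 d and, at 40 d, 127.8 and 378.1, a 10.4-fold rise (log2 3.38, SE 0.33, adjusted p = 9.2e-10). Chrna1, the alpha subunit, rose by 2.39 (SE 0.29, adjusted p = 7.4e-08), and Chrnd, the delta subunit, by 1.66 (SE 0.27, adjusted p = 9.6e-06), with no overlap of arrays for any of the 3. Chrne, the epsilon subunit, gave -0.39 (SE 0.37, adjusted p = 0.48), with overlapping arrays and -2.71 and -0.99 at other probe sets. Ache, the acetylcholinesterase of the synaptic cleft, lay between 264.7 and 1277, with a median of 859.9, against 3225 and 2337 at 30 d and, at 40 d, 2195 and 2270, and fell (log2 change -1.81, SE 0.36, adjusted p = 1.7e-04). The promoter of Chrng is shown because the gene is a textbook target of the myogenic factors, which bind E-boxes. It covers the 250 bases before the RefSeq start, on the forward strand of GRCm38.p6 at chr1:87205561-87205810, and capitals mark CAGCTG, the E-box searched, which reads the same on both strands.
Chrng: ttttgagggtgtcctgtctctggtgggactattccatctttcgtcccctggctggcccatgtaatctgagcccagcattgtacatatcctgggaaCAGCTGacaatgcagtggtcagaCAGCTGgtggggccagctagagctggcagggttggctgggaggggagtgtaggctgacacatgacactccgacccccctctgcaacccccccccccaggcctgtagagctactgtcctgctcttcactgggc
The E-box stands at -155 and -132 relative to the start. CAGCTG occurs in 13% of all 32851 RefSeq promoters of this length (4271), and a match describes the letters, not binding.

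Genes of myoblast adhesion and fusion were higher in regenerating muscle, with 7 of 13 up and 1 down (median 0.40), and 6 up and 0 down without the 4 arrays with a low control ratio. Adam12, a metalloprotease of fusing myoblasts, lay between 705.1 and 897.5, with a median of 829.2, against 31.93 and 146.4 at 30 d and, at 40 d, 31.17 and 86.87 (log2 change 3.25, SE 0.30, adjusted p = 3.3e-10). Cdh2, the N-cadherin, was at 470 ± 93.7 against 133.6 ± 14.1 (log2 change 1.79, SE 0.17, adjusted p = 3.9e-10). Ncam1, a neural adhesion molecule that also marks young fibres, rose by 1.46 (SE 0.14, adjusted p = 8.9e-10) and Vcam1 by 1.39 (SE 0.30, adjusted p = 4.5e-04), with smaller values at their other probe sets (0.20 to 1.00). Of 10 calcium-handling genes of the fibre, 4 fell, 0 rose and 6 did not pass (median -0.24). The changes of those 6 ran from -0.36 (Ryr3) to 0.75 (Atp2a1). Over all genes tested, 20% rose and 17.7% fell. Ryr1, the calcium release channel, lay between 5448 and 10316, with a median of 8664, against 27318 and 22496 at 30 d and, at 40 d, 25150 and 28100 (log2 change -1.65, SE 0.23, adjusted p = 7.0e-07), and Cacna1s, its voltage sensor, fell with it (log2 change -1.37, SE 0.20, adjusted p = 1.9e-06). Neither gene overlapped between groups. The dystrophin complex was mixed, with 2 up and 4 down of 14, led by Sgca, the alpha-sarcoglycan (log2 change -1.60, SE 0.26, adjusted p = 7.7e-06).

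Cell division genes were among the clearest rises. Of 36 mitosis genes, 30 rose and 0 fell (median 1.84), and without the 4 arrays with a low control ratio 25 rose and 0 fell. Of 34 DNA replication genes, 21 rose and 4 fell (median 0.88), or 15 and 1 without those arrays. Cdk1, the kinase that starts mitosis, lay between 777 and 1369, with a median of 1120, in regenerating muscle and at 47.75 and 70.42 at 30 d and, at 40 d, 79.89 and 73.45, close to the floor (15.0-fold, log2 3.90, SE 0.37, adjusted p = 6.4e-10). Cks2, a partner of the mitotic kinase, lay between 550.2 and 1138, with a median of 711.6, with all healed arrays below the floor, a rise of at least 11.5-fold. Prc1, which bundles the spindle midzone, was at 917.7 ± 179 against 72.3 ± 29.2 (log2 change 3.51, SE 0.18, adjusted p = 3.8e-15). Uhrf1, which maintains DNA methylation at the replication fork, lay between 648.1 and 1200, with a median of 951.7, against 71.88 and 83.39 at 30 d and, at 40 d, 82.81 and 99.27 (log2 change 3.46, SE 0.25, adjusted p = 2.6e-12). All of these were clear of the healed arrays. Mcm5, a subunit of the replicative helicase, rose by 1.81 (SE 0.15, adjusted p = 5.4e-11), with -0.10 at its other probe set. Cks1b, a small partner of cyclin-dependent kinases, rose by 3.83 (SE 0.36, adjusted p = 6.7e-10). In G1, 10 of 20 genes rose and 1 fell, beside 20% and 17.7% of all genes tested. The inhibitors of division Cdkn1c and Cdkn1a were among the rises. The inhibitors Cdkn1b, Cdkn2a, Cdkn2b, Cdkn2c and Cdkn2d did not pass, with changes from -0.11 (Cdkn2a) to 0.55 (Cdkn2d). Cdkn1c, the p57 inhibitor of differentiating myoblasts, was at 7106 ± 1060 against 1789 ± 716 (log2 change 2.07, SE 0.16, adjusted p = 1.8e-11). Cdkn1a, the p21 inhibitor, rose by 1.59 (SE 0.11, adjusted p = 2.1e-12) and the cyclin Ccnd1 by 1.40 (SE 0.17, adjusted p = 7.0e-08).

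The Cdk1 promoter is shown because the mitosis genes moved together and many of their promoters carry CCAAT boxes and cell cycle elements. It covers the 250 bases before the RefSeq start, on the reverse strand of GRCm38.p6 at chr10:69352913-69353162. Capitals mark CCAAT on either strand (here ATTGG) and the element TTTGAA, also searched on both strands.
Cdk1: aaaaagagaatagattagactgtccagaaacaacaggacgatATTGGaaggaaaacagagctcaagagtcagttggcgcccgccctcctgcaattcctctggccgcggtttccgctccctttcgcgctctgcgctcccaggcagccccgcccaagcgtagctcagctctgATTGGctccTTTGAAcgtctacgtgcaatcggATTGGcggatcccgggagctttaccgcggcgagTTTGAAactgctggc
CCAAT stands at -208, -80 and -48 and TTTGAA at -71 and -15 relative to the start, with no overlap. CCAAT occurs in 33.8% (11120) and TTTGAA in 16% (5252) of the 32851 promoters of this length, so single matches are common letters.

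Macrophage genes were higher in regenerating muscle almost throughout their list: 37 of 40 rose and 0 fell (median 2.00), and 32 rose without the 4 arrays with a low control ratio. In whole muscle, more cells of a type and more RNA per cell cannot be told apart. Aif1, a calcium-binding protein of macrophages, lay between 840.8 and 1124, with a median of 946.9, against 199.1 and 51.93 at 30 d and, at 40 d, 62.87 and 33.09, where 3 healed arrays were below the floor (log2 change 3.5, SE 0.33, adjusted p = 5.4e-10). Tyrobp, the signalling adaptor of myeloid receptors, lay between 4397 and 6317, with a median of 5662, against 835.3 and 980.5 at 30 d and, at 40 d, 847.7 and 325 (log2 change 3.0, SE 0.23, adjusted p = 1.4e-11). The groups were separated for both genes. Lgals3, a galectin of phagocytes, was at 4815 ± 543 against 729.5 ± 155 (log2 change 2.74, SE 0.20, adjusted p = 3.1e-12) and Fcgr2b, the inhibitory IgG receptor, at 1936 ± 394 against 282.5 ± 105 (log2 change 2.85, SE 0.22, adjusted p = 6.2e-12). Markers of alternative activation rose in 7 of 11 cases. Arg1, the arginase of such macrophages, spanned 191.4 to 1583 on the regenerating arrays and 16.67 to 100.9 on the healed arrays (log2 change 2.82, SE 0.52, adjusted p = 5.4e-05). Il4ra, the interleukin 4 receptor, rose by 1.89 (SE 0.22, adjusted p = 3.7e-08), with -0.30 at its other probe set.

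Several further lists cover functions of macrophages and other cells, and some share members with the macrophage list. Lysosomal genes rose in 22 of 28 cases and fell in 1 (median 1.00). Ctss, the cathepsin that processes class II antigen and also a member of the macrophage list, lay between 20167 and 27907, with a median of 23511, against 5663 and 5414 at 30 d and, at 40 d, 5351 and 3047 (log2 change 2.34, SE 0.16, adjusted p = 9.4e-13), and Ctsh, another cathepsin, rose by 2.28 (SE 0.15, adjusted p = 2.7e-13). Complement genes rose in 6 of 13 and fell in 1, but 5 of the rises belong to the macrophage list too, among them C3ar1, the C3a receptor (log2 change 2.66, SE 0.16, adjusted p = 9.9e-14), and the C1q chains C1qb (log2 change 2.27, SE 0.15, adjusted p = 3.0e-13) and C1qa (log2 change 2.00, SE 0.14, adjusted p = 2.6e-12). Of the 8 complement genes outside the macrophage list, with a median of 0.01, Cfp, the activator properdin, rose (log2 change 2.03, SE 0.19, adjusted p = 5.6e-10) and Cd55, an inhibitor of complement on cell surfaces, fell (log2 change -1.01, SE 0.20, adjusted p = 1.1e-04). The Cd55 call ended without the 4 arrays with a low control ratio (-0.72, adjusted p = 0.14), and both genes were named after their values were seen. Ifi30, a thiol reductase of antigen processing, led the 5 of 11 class II genes that rose (log2 change 3.20, SE 0.21, adjusted p = 2.9e-13). The class II chain H2-Aa was at 10566 ± 704 against 5790 ± 1956 (log2 change 0.95, SE 0.26, adjusted p = 0.0045), a call that ended without the second 40 d array (0.63, adjusted p = 0.089) or without the 40 d time point (0.69, adjusted p = 0.13). Chemokines and cytokines rose in 13 of 24 and fell in 2, or in 10 and 2 without the 4 arrays with a low control ratio. The monocyte attractant Ccl2 lay between 1043 and 2832, with a median of 1398, against 145.6 and 72.24 at 30 d and, at 40 d, 122.8 and 50.7 (15.9-fold, log2 3.99, SE 0.21, adjusted p = 5.7e-15), and the related Ccl8 (log2 change 3.18, SE 0.39, adjusted p = 7.5e-08) and Ccl7 (log2 change 2.89, SE 0.24, adjusted p = 5.6e-11) rose with it. Interferon-response genes rose in 12 of 22 and fell in 0 (median 0.68, or 1.12 without those 4 arrays), led by Isg15, a ubiquitin-like modifier (log2 change 1.98, SE 0.34, adjusted p = 1.8e-05), which did not pass without the 40 d time point (1.00, adjusted p = 0.092).

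Markers of other cell types were checked because whole muscle holds them. The counts below stand beside 20% of all genes tested that rose and 17.7% that fell. Of 17 neutrophil genes, 3 rose and 1 fell, no more than these shares. The rises were Mmp9, a gelatinase that macrophages also make (log2 change 3.17, SE 0.62, adjusted p = 1.3e-04), Padi4, which citrullinates histones (log2 change 1.58, SE 0.42, adjusted p = 0.0033), and S100a8, a calprotectin subunit (log2 change 1.62, SE 0.52, adjusted p = 0.015), whose call ended without the second array at 5 d (adjusted p = 0.052) or at 5.5 d (adjusted p = 0.058). None of the 3 passed without the 4 arrays with a low control ratio (adjusted p = 0.055, 0.13 and 0.2). T and natural killer cell genes gave 1 rise and 2 falls among 19, and the T cell receptor chains Cd3d, Cd3e and Cd3g did not pass. Of 14 B and plasma cell genes, Cd72 (log2 change 2.68, SE 0.31, adjusted p = 4.0e-08) and Blnk (log2 change 1.39, SE 0.25, adjusted p = 4.8e-05), both also known from macrophages, rose, and Jchain, the joining chain of secreted antibodies, fell (log2 change -1.15, SE 0.28, adjusted p = 0.0015) with overlapping arrays. Blnk did not pass without the 4 arrays with a low control ratio (0.88, adjusted p = 0.16), nor Jchain without the 40 d time point (-0.36, adjusted p = 0.56). Endothelial genes rose in 3 and fell in 5 of 19, with Flt1, a receptor for vascular growth factor, the largest fall (log2 change -1.31, SE 0.18, adjusted p = 4.9e-07). Acta2, the smooth muscle actin that activated fibroblasts also make, was at 6770 ± 1398 against 2524 ± 484 (log2 change 1.42, SE 0.13, adjusted p = 6.9e-10), whereas Myh11, the smooth muscle myosin, fell (log2 change -1.38, SE 0.21, adjusted p = 4.0e-06). Adipocyte genes fell in 6 of 13 and rose in 0, whereas 2 fell and 2 rose without the 4 arrays with a low control ratio. The falls included Lipe, the hormone-sensitive lipase (log2 change -1.58, SE 0.24, adjusted p = 3.0e-06). Schwann cell and nerve genes fell in 3 of 10, among them Mbp, the myelin basic protein (log2 change -0.99, SE 0.19, adjusted p = 7.7e-05), whose other probe set gave 0.30. Among 8 mast cell genes there were 2 rises and 1 fall. Red cell genes (0 of 6) and skin epithelial genes (0 of 8) passed in neither direction.

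**Figure D3:**
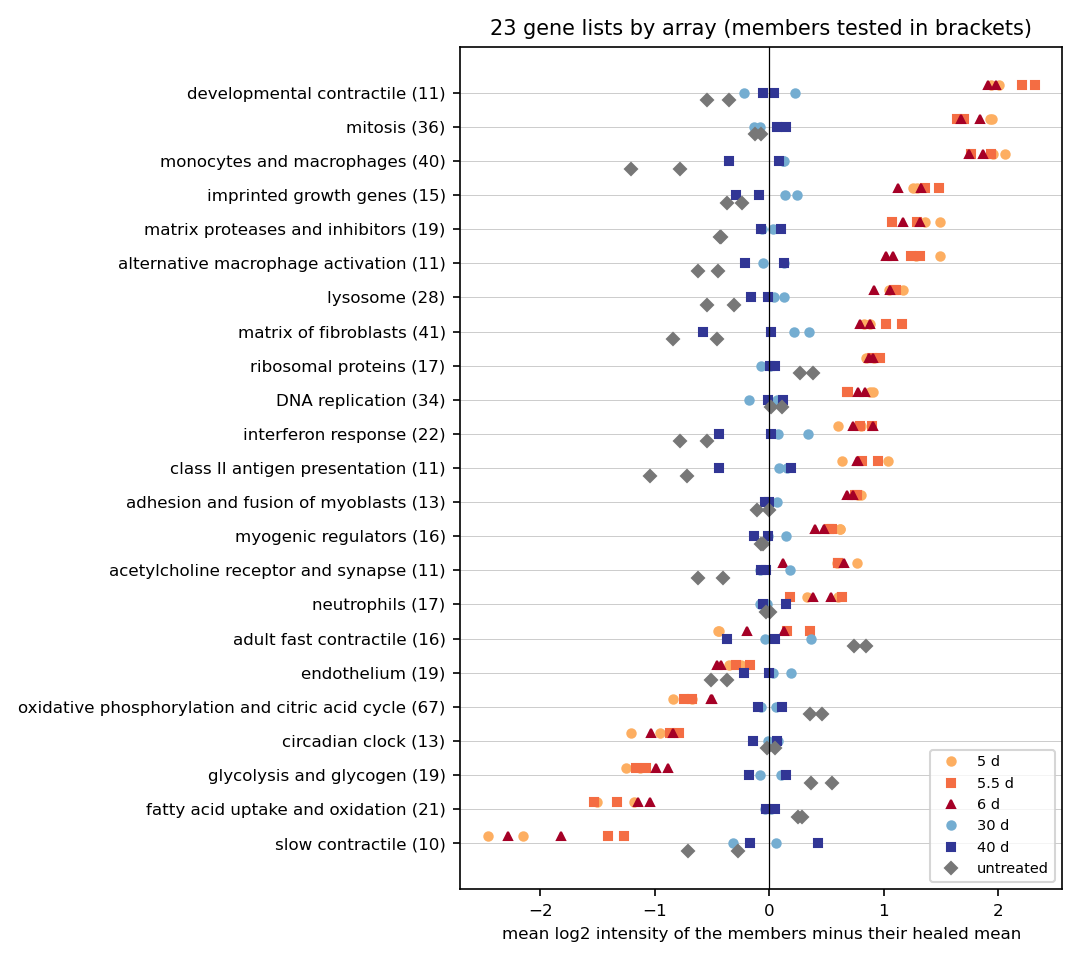
Score of 23 gene lists on each of the 10 compared and 2 untreated arrays, as the mean log2 difference of a list's genes from their mean on the healed arrays (horizontal axis). The macrophage, mitosis and matrix lists lie above the healed arrays on all 6 regenerating arrays, and the slow contractile and fatty acid lists lie below.

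Matrix genes of fibroblasts rose in 29 of 41 cases and fell in 1 (median 0.84), and in 29 and 1 without the 4 arrays with a low control ratio, where the median was 1.43. Tnc, the tenascin of injured and developing tissue, lay between 6158 and 9012, with a median of 7333, in regenerating muscle and at 528 and 455.9 at 30 d and, at 40 d, 374 and 248.1, an 18.9-fold rise (log2 4.24, SE 0.27, adjusted p = 2.1e-13). Postn, the matricellular periostin, lay between 20261 and 36747, with a median of 24795, against 4929 and 7115 at 30 d and, at 40 d, 2886 and 1304 (log2 change 2.98, SE 0.24, adjusted p = 1.6e-11). Both genes were separated between groups, and in healed muscle Postn was higher at 30 d than at 40 d. Lox, a member of the matrix list that crosslinks collagen, lay between 3777 and 7764, with a median of 5501, against 753.6 and 781 at 30 d and, at 40 d, 683.8 and 440.2 (log2 change 3.12, SE 0.17, adjusted p = 7.7e-15). Of 23 genes of collagen processing and secretion, 13 rose and 4 fell, beside 20% and 17.7% of all genes tested. Ppib, a prolyl isomerase of the endoplasmic reticulum (log2 change 1.99, SE 0.11, adjusted p = 1.5e-14), and Serpinh1, the collagen chaperone (log2 change 1.69, SE 0.13, adjusted p = 1.6e-11), were among the rises. Proteases and their inhibitors rose in 12 of 19 and fell in 1. Adam8, a metalloprotease of leukocytes and regenerating tissue, lay between 1259 and 2545, with a median of 1988, while all 4 healed arrays lay below the floor, and its rise of at least 28.9-fold was the largest of all separated genes (log2 4.85, SE 0.24, adjusted p = 1.0e-15). Mmp13, a collagenase, was at 895.4 ± 227 against 69.89 ± 32.6 (log2 change 3.53, SE 0.27, adjusted p = 6.8e-12), with 3 healed arrays below the floor. Mmp12, the macrophage elastase, was at 4628 ± 1129 against 1146 ± 299 (log2 change 2.01, SE 0.26, adjusted p = 2.2e-07).

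Growth factors and receptors did not move together, with 10 up and 7 down of 31, beside 20% up and 17.7% down over all genes. Igf2, the fetal insulin-like growth factor, lay between 14092 and 22072, with a median of 17530, against 5815 and 7189 at 30 d and, at 40 d, 5000 and 4316 (log2 change 1.71, SE 0.13, adjusted p = 6.7e-12). Igf1, which is known to aid muscle growth, had a small fall at its brightest probe set (log2 change -0.53, SE 0.14, adjusted p = 0.0033), where the arrays overlapped, and 1.81 at its other probe set. Without the second 40 d array the change was -0.28 (adjusted p = 0.12), without the 40 d time point -0.32 (adjusted p = 0.23), and the mean of both probe sets gave 0.64, so its direction depends on the probe set. Tgfb1, which promotes fibrosis, rose (log2 change 1.92, SE 0.35, adjusted p = 5.6e-05) although its arrays overlapped. Fgf1, a growth factor of fibres, was at 85.06 ± 56.2 against 505.3 ± 148 and fell (log2 change -2.47, SE 0.38, adjusted p = 5.1e-06), as did Vegfa, the vascular growth factor (log2 change -1.42, SE 0.24, adjusted p = 1.4e-05). Imprinted genes that are active in fetal growth had a clearer direction: 11 of 15 rose and 1 fell (median 1.44), and 11 rose and 0 fell without the 4 arrays with a low control ratio. Mest lay between 2825 and 5028, with a median of 4434, against 523.4 and 541.2 at 30 d and, at 40 d, 280.8 and 202.2 (log2 change 3.48, SE 0.27, adjusted p = 1.6e-11). Plagl1, a zinc finger regulator of this gene network, rose by 2.95 (SE 0.21, adjusted p = 2.1e-12), Peg3 by 2.59 (SE 0.24, adjusted p = 3.2e-10) and the noncoding RNA Meg3 by 2.28 (SE 0.22, adjusted p = 7.2e-10). None of the 4 overlapped between groups, and Peg3 and Meg3 gave 1.03 to 3.19 at their other probe sets.

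Genes of mitochondrial energy supply were lower in regenerating muscle. Of 67 genes of the respiratory chain, ATP synthase and citric acid cycle, 1 rose and 39 fell (median -0.60), and 1 rose and 25 fell without the 4 arrays with a low control ratio. Sucla2, a subunit of succinyl-CoA ligase, lay between 2385 and 4217, with a median of 3195, against 14956 and 14289 at 30 d and, at 40 d, 12540 and 14693 (log2 change -2.15, SE 0.18, adjusted p = 5.7e-11). Sdha, of succinate dehydrogenase, lay between 719.3 and 1033, with a median of 757.3, against 3028 and 3214 at 30 d and, at 40 d, 3046 and 3329 (log2 change -1.99, SE 0.18, adjusted p = 1.7e-10). The regenerating values of both stayed well under the healed ones. Fatty acid genes fell in 18 of 21 cases (median -1.17), or in 14 without those arrays. Pdk4, which holds glucose carbon out of the mitochondria, was at 2056 ± 1049 against 10792 ± 3824 (log2 change -2.52, SE 0.24, adjusted p = 1.0e-09), Ucp3, an uncoupling protein, fell by 2.31 and Cd36, the fatty acid transporter, by 1.99 on the log2 scale. Glycolysis and glycogen genes rose in 1 and fell in 11 of 19 (median -1.03). Subunits of phosphorylase kinase, the enzyme that starts glycogen breakdown, were among the largest falls, with Phkg1 between 290.4 and 510.6, with a median of 366.8, against 4142 and 2738 at 30 d and, at 40 d, 3750 and 3401 (log2 change -3.23, SE 0.27, adjusted p = 4.5e-11), and Phka1 at -2.94 (SE 0.24, adjusted p = 5.2e-11). Hk2, the hexokinase of muscle, changed by -2.32 (SE 0.15, adjusted p = 1.9e-13) with 0.07 at its other probe set, and Slc2a4, the insulin-responsive glucose transporter, by -2.55 (SE 0.35, adjusted p = 7.0e-07) with -0.39. Among creatine and nucleotide enzymes, 4 of 12 rose and 7 fell. Gatm, the first enzyme of creatine synthesis, stood apart from the muscle forms at 3674 ± 578 against 632.5 ± 181 (log2 change 2.57, SE 0.18, adjusted p = 2.2e-12).

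Most clock genes that passed were lower. Of 13 tested, 2 rose and 10 fell (median -0.91), and 0 rose and 7 fell without the 4 arrays with a low control ratio. Dbp, an output factor with a strong daily rhythm in many tissues, lay between 167.9 and 483.1, with a median of 229.6, against 2001 and 2010 at 30 d and, at 40 d, 2046 and 1409 (log2 change -2.89, SE 0.36, adjusted p = 1.2e-07). The related Tef was at 1972 ± 634 against 8949 ± 1032 (log2 change -2.25, SE 0.28, adjusted p = 9.4e-08), and the repressors Nr1d2 (log2 change -1.87, SE 0.13, adjusted p = 2.2e-12) and Nr1d1 (log2 change -1.47, SE 0.17, adjusted p = 2.5e-08) fell with it. The 2 rises, named after their values were seen, were the core activators Arntl, at 538.1 ± 95.9 against 243.2 ± 101 (log2 change 1.22, SE 0.16, adjusted p = 4.7e-07), and Clock (log2 change 0.30, SE 0.12, adjusted p = 0.045). Neither passed without the 4 arrays with a low control ratio (adjusted p = 0.26 and 0.094), and the Clock call also ended without any of 8 single arrays (adjusted p = 0.064 to 0.17). Since the hour of collection is not given in the sources used here, a difference of hour and a difference of stage cannot be told apart for these genes. Ribosomal protein genes rose in 13 of 17 cases and fell in 1 (median 1.04), with 13 up and 0 down without those arrays. Rps18 lay between 15578 and 19628, with a median of 16380, against 5942 and 4723 at 30 d and, at 40 d, 5480 and 5347 (log2 change 1.67, SE 0.11, adjusted p = 5.4e-13), and Rps19 was at 7724 ± 3383 against 1147 ± 157 (log2 change 2.63, SE 0.21, adjusted p = 1.6e-11). These genes have near-identical pseudogene copies, so their probe sets may read more than 1 gene.

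Several of the largest separated changes belonged to none of these groups. Csrp2, a LIM protein first known from smooth muscle, lay between 3080 and 4031, with a median of 3543, against 226 and 333.4 at 30 d and, at 40 d, 154.7 and 115.8 (18.6-fold, log2 4.22, SE 0.29, adjusted p = 8.8e-13). C1qtnf3, a secreted relative of complement C1q, rose by 3.80 (SE 0.22, adjusted p = 2.0e-14), and Glipr2, a Golgi-associated protein, by 3.64 (SE 0.33, adjusted p = 2.2e-10). Plin4, a coat protein of lipid droplets, lay between 212.5 and 376.8, with a median of 267.1, against 3815 and 3349 at 30 d and, at 40 d, 3508 and 4144, a fall of 13.2-fold (log2 -3.72, SE 0.27, adjusted p = 2.2e-12). The potassium channel subunit Kcnj11, which couples membrane voltage to ATP, fell (log2 change -3.14, SE 0.30, adjusted p = 6.7e-10), as did Dnajb5, a co-chaperone (log2 change -3.38, SE 0.44, adjusted p = 2.7e-07), and P2ry2, a receptor for extracellular nucleotides (log2 change -3.49, SE 0.33, adjusted p = 4.9e-10). Inmt, a methyltransferase of small amines, was at 181.3 ± 73.3 against 1951 ± 504, and Mlf1, a myeloid leukaemia factor also made in muscle, at 273.3 ± 108 against 2337 ± 437 (SD, n = 6 and 4, adjusted p = 3.3e-09 and 4.7e-06). Tspan8, a tetraspanin, was below the floor on all 6 regenerating arrays and at 686.6 and 542.9 at 30 d and, at 40 d, 755.6 and 734, at least 10.4-fold lower. The antibody light chain segment Igkv6-23 also had a large fall (log2 change -3.84, SE 0.71, adjusted p = 6.4e-05), but its healed arrays stood at 261.5 and 418 at 30 d and, at 40 d, 12466 and 1902, and without the 40 d time point its change was -1.90 (adjusted p = 0.14).

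Within the regenerating window, 2 of 8087 genes differed between 6 and 5 d (0.0247%, limma; 397 at an unadjusted p below 0.05). Ccn2, the connective tissue growth factor, was at 4431 and 4615 at 5 d, 3184 and 3243 at 5.5 d and 779.8 and 812.9 at 6 d, a fall of 2.51 on the log2 scale from 5 to 6 d (SE 0.36, adjusted p = 0.0015). Its healed arrays, at 1210 and 2470 at 30 d and, at 40 d, 1182 and 874.6, all lay between the 5 d and the 6 d values, so that its mean over the window (log2 change 0.77, SE 0.23, adjusted p = 0.01) combines levels above and below healed muscle, and that call ended without the first 30 d array (adjusted p = 0.14) or the second 40 d array (adjusted p = 0.066), and without the 5, 5.5 or 40 d time point (adjusted p = 0.5, 0.14 and 0.42). Agtr2, the angiotensin receptor of fetal tissues, was at 156.1 and 160.6 at 5 d and 351.9 and 331.8 at 6 d (1.11, SE 0.20, adjusted p = 0.02), with 0.06 at its other probe set for the whole comparison. The count between 6 and 5 d was 41 without the first 6 d array and 1 to 2 without any other single array of these times. Some contractile values were highest at 5.5 d. Acta1 was at 3130 and 10762 at 5 d, 24809 and 36818 at 5.5 d and 5767 and 16769 at 6 d, and the slow list's highest regenerating scores were at 5.5 d. This is given as a description, since no test of 5.5 d against its neighbours was run.

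Between 40 and 30 d, 29 genes differed (0.359%, limma; 787 at an unadjusted p below 0.05), of which 7 were higher and 22 lower at 40 d. Among the 22 were Lst1, Slfn2 and Postn, each of which also rose in regenerating muscle. Lst1, a leukocyte transcript, was at 633.4 and 651.4 at 30 d and 145.8 and 116.3 at 40 d (-2.30, SE 0.43, adjusted p = 0.0064), and Slfn2, a schlafen of lymphoid and myeloid cells, at 505.9 and 549.2 and 156.7 and 59.79 (-2.39, SE 0.53, adjusted p = 0.033). Against healed muscle as a whole, both were higher in regenerating muscle (Lst1 2.96, SE 0.28, adjusted p = 4.9e-10, Slfn2 2.85, SE 0.35, adjusted p = 7.2e-08). Postn was at 4929 and 7115 at 30 d and 2886 and 1304 at 40 d (-1.61, SE 0.36, adjusted p = 0.035). Smoc1, a secreted matrix protein, was at 500.4 and 633.7 and then 95.83 and 101.4 (adjusted p = 0.033), and its change in the whole comparison (log2 change 1.08, SE 0.36, adjusted p = 0.02) turned to -0.17 without the 40 d time point and did not pass without any of 3 single arrays (adjusted p = 0.053 to 0.078). Kcne1l, a potassium channel accessory subunit, was at 492.7 and 531 and then 130.8 and 64.25 (adjusted p = 0.0082). Hoxd1, a homeobox gene, was the other way, at 13.86 and 38.13 and then 104.2 and 190.5 (adjusted p = 0.0064), near the floor. Without the first 40 d array the count between 40 and 30 d was 210, and without each of the other 3 arrays in turn it was 7, 10 or 13.

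Healed muscle as a reference differs from untreated muscle, and the comparisons below share arrays. Against the 2 untreated arrays, 434 genes were higher in healed muscle (5.37%) and 173 lower (2.14%), while 1713 were higher (21.2%) and 1417 lower (17.5%) in regenerating muscle. The count between healed and untreated muscle, 607 in all, was 334 without the first and 268 without the second untreated array, and 365 without the second 30 d array. Of the regenerating genes, 1304 were higher and 1027 lower against both references, 310 higher and 397 lower against healed muscle alone, and 404 higher and 390 lower against untreated muscle alone. The median SE was 0.195 against healed and 0.246 against untreated muscle, so the same change is easier to call against healed muscle. The untreated arrays were of mice of 8 weeks, and the age of the healed samples is not given. A difference of age and one of injury therefore cannot be told apart here. Macrophage genes were above untreated muscle at 30 to 40 d: 21 of 40 were higher (median 0.88), as were 21 of 41 matrix genes (median 0.79). Set against these arrays, healed minus untreated was 1.45 (SE 0.32, adjusted p = 0.004) for Tyrobp, 2.02 (SE 0.22, adjusted p = 4.5e-07) for Ctss and 1.82 (SE 0.32, adjusted p = 4.2e-04) for Postn. Mmp12 stood out, with untreated arrays at 178.8 and 33.47, healed arrays at 900.2 and 1255 at 30 d and, at 40 d, 909.4 and 1520 and a regenerating range of 3171 to 5852 (healed minus untreated 3.38, SE 0.35, adjusted p = 3.0e-07).

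Some genes differed from untreated muscle in both windows. Cyfip2, a subunit of an actin-regulating complex, was at 51.18 and 90.11 in untreated muscle, at 369.7 and 493.6 at 30 d and, at 40 d, 608 and 480.4, and between 300.5 and 439.9, with a median of 363.5, in regenerating muscle. Its change was 2.65 (SE 0.33, adjusted p = 6.0e-06) for healed minus untreated and -0.39 (SE 0.25, adjusted p = 0.25) for regenerating minus healed. Smyd2, a lysine methyltransferase of muscle, went from 2830 and 4263 in untreated muscle to 937.4 and 178.8 at 30 d and, at 40 d, 235.2 and 1155, with regenerating arrays between 429.6 and 923.4 (healed minus untreated -2.91, SE 0.79, adjusted p = 0.021). Wnt4, a secreted signal, was at 279.5 and 286.3 untreated and near or below the floor on the 10 injected arrays (healed minus untreated -2.03, SE 0.17, adjusted p = 1.7e-09). Hbb-b2, a beta globin chain of red cells, was lower in healed than in untreated muscle (log2 change -2.27, SE 0.52, adjusted p = 0.0063) and gave 0.38 (SE 0.39, adjusted p = 0.52) for regenerating minus healed. Mstn was at 1865 and 1895 untreated, at 649.8 and 346 at 30 d and, at 40 d, 443.3 and 507.3, and between 142.6 and 321, with a median of 241.3, in regenerating muscle. It fell against healed muscle as well, as given above.

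Called against both references in opposite directions were 5 genes, each with a mean regenerating level between the untreated and the healed ones. For Prrc2a, a proline-rich RNA-associated protein, regenerating minus healed was -1.21 (SE 0.32, adjusted p = 0.0033) and regenerating minus untreated 1.34 (SE 0.41, adjusted p = 0.0098). For Sfrp4, a secreted Wnt antagonist, they were -0.68 (SE 0.26, adjusted p = 0.04) and 0.87 (SE 0.33, adjusted p = 0.038). The corresponding values were -0.38 (SE 0.12, adjusted p = 0.01) and 0.48 (SE 0.15, adjusted p = 0.01) for the signalling adaptor Grb2, -0.37 (SE 0.11, adjusted p = 0.0092) and 0.38 (SE 0.14, adjusted p = 0.034) for Arl2bp, which binds a small GTPase, and -0.32 (SE 0.12, adjusted p = 0.041) and 0.51 (SE 0.15, adjusted p = 0.0089) for Mfge8, which bridges dying cells to phagocytes. With 1 array left out, the call against healed muscle ended for 3 of the 5: that of Sfrp4 without each of 6 arrays in turn (adjusted p = 0.083 to 0.26), that of Mfge8 without each of 5 (0.093 to 0.27) and that of Grb2 without the first 30 d array (0.052). Without the 40 d time point, Prrc2a, Grb2, Arl2bp and Mfge8 did not pass against healed muscle (adjusted p = 0.1, 0.1, 0.14 and 0.73), and without the 30 d time point Sfrp4 did not (0.34). St6galnac6, a sialyltransferase, was at 79.91 and 249.5 untreated, 761.8 and 747.1 at 30 d and, at 40 d, 614.4 and 950.9, and between 51.16 and 373.8, with a median of 151.4, in regenerating muscle, so it fell against healed muscle (log2 change -2.34, SE 0.54, adjusted p = 8.8e-04) but gave 0.09 (SE 0.68, adjusted p = 0.97) against untreated muscle.

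**Figure D4:**
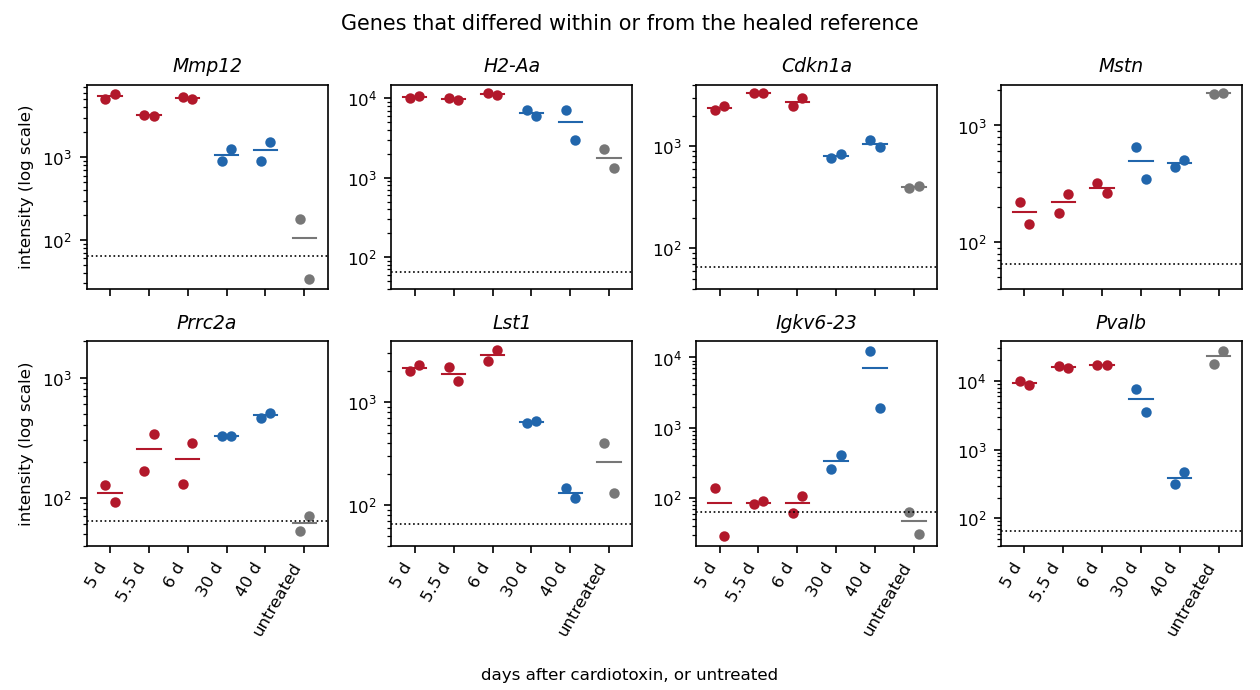
Intensity (log axis, deposited units) of 8 genes on the 2 untreated arrays, the 6 regenerating arrays and the 4 healed arrays, with each point 1 array, bars at the mean of the 2 arrays of a group and the dotted line at the floor of 64.7. Mmp12 lies higher and Mstn lower on each of the 10 injected arrays than on both untreated arrays.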

How the data were processed

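Affymetrix murine arrays of the later version were used. The values deposited by the authors carry no stated unit and were taken as linear intensity, and the software is not given in the sources used here. All arrays had a common trimmed mean (2% trimmed), so no further scaling was applied. Intensities were raised to a floor of 64.7, the 20th percentile of the median array, and put on the log2 scale. Of 12488 probe sets, 66 manufacturer controls were left out and 11997 with at least 2 of 54 arrays above the floor were tested. Symbols came from the platform annotation (1 symbol for 10833 probe sets, several for 396, none for 1193). A gene was its brightest probe set with 1 symbol, and 1963 of 8087 genes had more than 1.

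limma 3.58.1 (R 4.3.3) was fitted to all 54 arrays with 1 mean per time point (27 residual degrees of freedom). The contrast was the mean of 5, 5.5 and 6 d minus the mean of 30 and 40 d, with Benjamini-Hochberg adjustment over all probe sets and a threshold of 0.05. The other contrasts came from the same fit. The script was tested on simulated data. The precision is limited by the number of arrays.

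The groups and the 39 gene lists (889 entries, from textbook knowledge) were chosen with earlier results of these data known. Named were the 12 largest separated rises and falls, up to 4 passed members per list, the isoform pairs, 8 fixed regulators, the largest changes of the other contrasts and genes of opposite direction against the references. Alternatives covered scaling, floor, filter, variance model, a required 2-fold change, blocks by sample code, arrays and time points left out, other references and windows, and the mean of probe sets. Leaving out the 3 healed arrays with a low Gapdh ratio was chosen after seeing the data. Promoters came from the RefSeq table of GRCm38.p6, in which 6453 tested genes were matched by symbol.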

Additional observations from a re-analysis of the deposited data

Results flagged for a closer look

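An array was picked out where its value for a named gene lay apart from all other arrays of its group, by Dixon's 95% criterion. The criterion was applied to log2 intensities raised to the floor of 64.7. Chance flags about 1 in 20 groups, but not where all other arrays lay below the floor. Any value above the floor is then picked out. This was so for Mmp13, Mmp9, Aif1, Padi4, Arg1 and P2ry2, whose flags do not by themselves show a distant array. Of 299 groups tested over 153 named genes, 32 had such an array, and 10 of these were the second 40 d array. Each array's own value is given first and then the range of the other arrays of its group.

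The second 40 d array was high for Mmp13 (118, 45.72 to 58.5), Mmp9 (82.72, 34.1 to 44.6), Slc2a4 (10302, 6831 to 6990) and Igf1 (5652, 2781 to 3065). It was low for Hes6 (219.6, 360.7 to 375.2), Tyrobp (325, 835.3 to 980.5), Ctss (3047, 5351 to 5663), Ccl8 (105.8, 643.3 to 817.7), Fgf1 (287.5, 556.9 to 619.2) and Dbp (1409, 2001 to 2046). The first 30 d array was high for Myog (1195, 858.7 to 883.7), Ache (3225, 2195 to 2337), Aif1 (199.1, 33.09 to 62.87), Padi4 (66.33, 43.91 to 57.49) and Hbb-b2 (1677, 806.2 to 858). It was low for Atp2a2 (5784, 13416 to 14757). The first 40 d array was high for Pdk4 (16513, 8505 to 9131), Nr1d1 (2342, 1609 to 1636), Cd72 (137.2, 27.83 to 67.74) and Mbp (2018, 1410 to 1450). It was low for Ckm (6583, 10719 to 11694). The first 5.5 d array was high for Myh3 (11646, 7571 to 8880) and Atp2a2 (4028, 2605 to 3051). It was low for Mlf1 (81.67, 260.3 to 381). The second 6 d array was high for P2ry2 (100.4, 54.5 to 61.79). It was low for Myf5 (153.5, 278 to 385.2). The second 30 d array was high for Arg1 (100.9, 16.67 to 43.96) and Sfrp4 (2183, 1132 to 1178). The first 6 d array was high for Cox7a1 (802.2, 389.9 to 492.1) and Sdha (1033, 719.3 to 791.4). The second 5.5 d array was low for Flt1 (201.9, 352.9 to 426.6). The second 5 d array was low for Smyd2 (429.6, 739.8 to 923.4).

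The change from healed muscle differed between 6 and 5 d for 2 named genes, by the limma test of the difference. It was higher at 6 d by 1.11 on the log2 scale for Agtr2 (adjusted p = 0.02) and differed by -2.51 for Ccn2 (adjusted p = 0.0015).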

How the results depend on the processing

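The counts of genes higher and lower in regenerating muscle lay between 1447 and 1626 and between 1322 and 1622 over the other scalings, floors, filters, variance models and fits on 10 arrays, except where a 2-fold change was required, which left 276 higher and 135 lower genes (522 probe sets). Scaling to a common median gave 1447 higher and 1622 lower. The code number as a replicate block gave 1585 and 1402. Leaving out 1 array at a time gave 1396 to 1572 and 1184 to 1368, and leaving out 1 time point gave as few as 1223 and 1032 (without 40 d). Without the 3 healed arrays with a low Gapdh ratio the counts were 1230 and 1008. Between 6 and 5 d, 1 gene passed with the floor at 0.5 times its value and 1 with robust moderation, and 1 to 41 with 1 array left out. With 1 array left out, 7 to 210 genes passed between 40 and 30 d and 268 to 547 between healed and untreated muscle. Of the 138 named genes that passed, 12 lost the call without some single array.

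Some genes changed sign. Smoc1 gave -0.17 without 40 d, Igf1 0.64 as the mean of its probe sets, and Kcne1l 0.13 without the 4 arrays with a low control ratio and 0.10 without the 3 healed ones. Against untreated in place of healed muscle, Igkv6-23 gave 0.45, Pvalb -0.70, Cyfip2 2.26, Prrc2a 1.34, St6galnac6 0.09, Smyd2 -2.21, Hbb-b2 -1.89, Sfrp4 0.87, Grb2 0.48, Arl2bp 0.38 and Mfge8 0.51, since the reference itself differs there. For the others the cause was not tested. Genes near the floor, and changes seen at 1 of several probe sets, are the least certain.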
